A study of Bos taurus with 6 samples.

Results

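Small heat shock proteins and their co-chaperone BAG3 were followed in bovine blastocysts produced in vitro, as 4 genes looked up by symbol among the 9537 genes of the deposited RNA sequencing table, where all 4 were present. CRYAB, HSPB8 and HSPB1 encode small heat shock proteins, and BAG3 encodes the adaptor that links them to HSP70 chaperones. The libraries came from blastocysts of low cryosurvival after vitrification, a rapid ice-free freezing (3 libraries), and from blastocysts of high cryosurvival (3 libraries). All were from embryos grown in SOFaaci, a synthetic oviduct fluid medium. The sample titles carry the code NV on every low and V on every high cryosurvival library. What the codes stand for is not explained. The labels are also silent on the time of RNA sampling relative to vitrification and on whether each library was a separate pool of embryos. The p-values below therefore measure only the spread between these libraries, which may be technical.

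Small heat shock proteins share an alpha-crystallin domain, assemble into large oligomers and hold unfolding proteins without using ATP. BAG3 binds HSP70 through its BAG domain and small heat shock proteins, HSPB8 above all, through short motifs, and so passes their clients to HSP70 for refolding or to autophagy. Their genes, with that of the inducible HSP70, are known targets of heat shock factor 1, and HSP70 transcripts are often measured in bovine embryos as readouts of culture stress.

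The 4 genes were chosen by name with the differences between low and high cryosurvival in these same libraries known. Their differences are therefore given as a description, with no test. In the authors' deposited table CRYAB, BAG3 and HSPB8 were among the 87 genes called higher in low cryosurvival at an adjusted p below 0.05, which is 0.912% of the table. The authors' deposited table gave adjusted p values of 0.002 for CRYAB, 0.02 for BAG3 and 0.048 for HSPB8, the last just inside the threshold. HSPB1 had an adjusted p of 0.979 in the authors' deposited table.

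One library stood apart. An index of long over short mRNAs (the median log2(CPM + 1) of 27 genes with long mRNAs minus that of 57 genes with short ones) was 0.731, -1.561 and 0.364 in low libraries 1, 2 and 3, and between -0.277 and -0.010 in the high libraries. The reads of low library 2 differed from those of low libraries 1 and 3 with a chi-square per degree of freedom of 171.5 and 139.2, against 6.8 to 22.9 among the other pairs within a group. CPM is the read number of a gene scaled by a size set for each library. Over the table CPM summed to 1100411 in low library 2 and to 960647 to 995602 in the other libraries. The size used for low library 2 was thus smaller than its reads in the table, and how it was set is not stated in the sources used. Libraries had 14651477 to 19467022 reads in the table, and 1 read was worth 0.0499 to 0.0751 CPM. Markers of the trophectoderm (8 of 8 listed genes), epiblast (5 of 5) and hypoblast (6 of 7) were in the table.

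CRYAB, the alpha-B crystallin first known from lens and muscle, was at 10.3, 12.8 and 8.32 CPM in low cryosurvival libraries 1, 2 and 3, against 3.87, 2.78 and 4.83 CPM in high cryosurvival libraries 1, 2 and 3. Every low library lay above every high library, and the lowest low value was well clear of the highest high value. The means were 10.5 ± 2.23 CPM over low and 3.82 ± 1.02 CPM over high libraries (SD, n = 3 each), a ratio of 2.74. These values rest on 206, 170 and 159 reads in the low libraries and on 69, 53 and 87 reads in the high libraries. Exact Poisson 95% intervals, which cover counting error only, ran from 7.08 to 9.72 CPM in low library 3 and from 3.86 to 5.95 CPM in high library 3, the nearest pair, and did not meet. The difference in log2(CPM + 1), low minus high, was 1.25 ± 0.21 (SE), a scale that understates the change of a gene at so few CPM. Among all 9537 genes measured, ranked from the largest increase in low cryosurvival, CRYAB was 15, HSPB8 52, BAG3 108 and HSPB1 6944. The genes were chosen with this contrast known, so nothing is read from the ranks. Low library 2 had the highest CRYAB level of all, and without it the difference was 1.11 ± 0.19. In bulk RNA, here and for the genes that follow, a lower level per cell and fewer cells with the transcript cannot be told apart.

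HSPB8, the small heat shock protein that forms a stable complex with BAG3, was at 11.9, 5.78 and 11.6 CPM in low libraries 1, 2 and 3, against 3.98, 4.56 and 4.71 CPM in high libraries 1, 2 and 3. Low libraries 1 and 3 were close together and far above the high libraries, while low library 2 lay only slightly above them. Low library 2 had 77 HSPB8 reads, with a Poisson interval of 4.56 to 7.23 CPM, and high library 3 had 85 reads, with an interval of 3.77 to 5.83 CPM. The intervals of this pair overlap, so at this depth the lowest low library was not separated from the highest high library by counting alone. The means were 9.76 ± 3.45 CPM over low and 4.42 ± 0.389 CPM over high libraries (SD, n = 3 each), a ratio of 2.21. The log2 difference was 0.93 ± 0.26 (SE), and 1.24 ± 0.10 without low library 2.

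BAG3 was at 98.9, 71.1 and 101 CPM in low libraries 1, 2 and 3, against 49.0, 54.8 and 49.4 CPM in high libraries 1, 2 and 3. The groups did not overlap, and low library 2 was again the lowest of its group. BAG3 was counted deeply, with 947 to 1981 reads in the low and 874 to 1045 reads in the high libraries. In low library 2 the Poisson interval of 66.7 to 75.8 CPM stayed above that of high library 2, the highest of its group, at 51.5 to 58.2 CPM. The means were 90.3 ± 16.6 CPM over low and 51.1 ± 3.24 CPM over high libraries (SD, n = 3 each), a ratio of 1.77. The log2 difference was 0.79 ± 0.17 (SE) with all libraries and 0.96 ± 0.09 without low library 2.

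HSPB1, also called HSP27, a small heat shock protein that binds actin filaments and is regulated by phosphorylation, did not show this pattern. It was at 577, 678 and 570 CPM in low libraries 1, 2 and 3, against 650, 643 and 721 CPM in high libraries 1, 2 and 3. The groups overlapped: low library 2 lay between the high libraries, and the other low libraries lay below all of them. The means were 608 ± 60.4 CPM over low and 671 ± 43.4 CPM over high libraries (SD, n = 3 each), a ratio of 0.906. With 9024 to 13001 reads a library, counting error was small beside the spread between libraries. The log2 difference was -0.14 ± 0.13 (SE), and -0.22 ± 0.09 without low library 2.

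**Figure D1:**
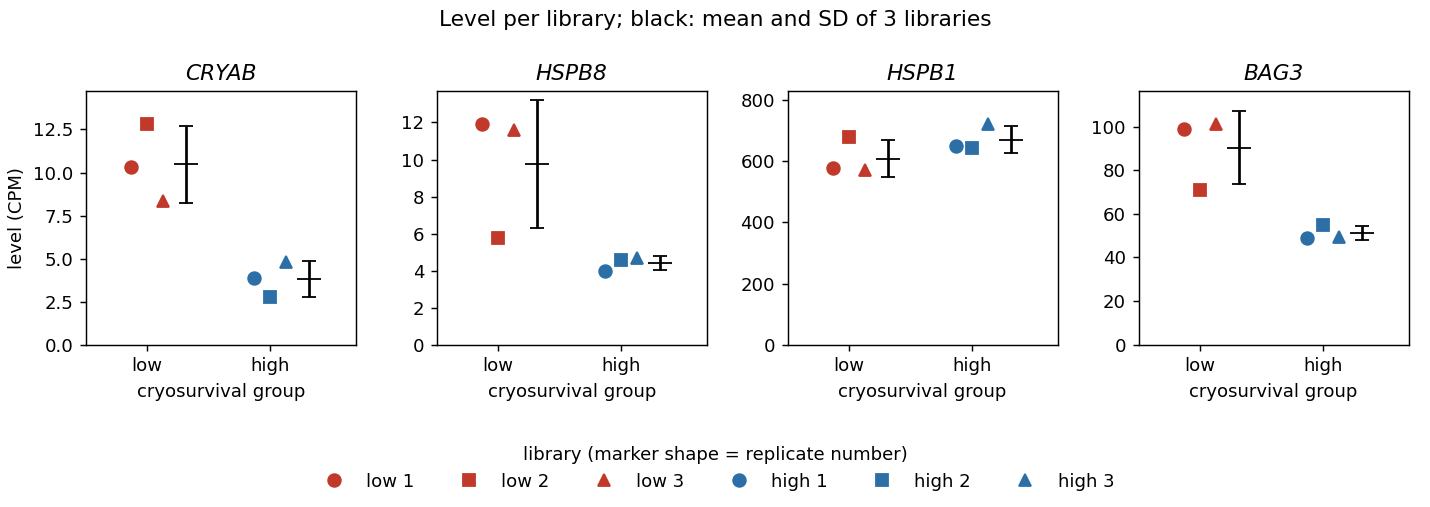
Levels of CRYAB, HSPB8, HSPB1 and BAG3 in CPM (vertical axis, from 0, a separate scale per gene) in the low and high cryosurvival libraries, with the mean and SD of 3 libraries in black. The low libraries of CRYAB, HSPB8 and BAG3 lie above all high libraries, with low library 2 (square) lowest for HSPB8 at 5.78 CPM and for BAG3 at 71.1 CPM, while the groups of HSPB1 overlap.

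Of the 4 genes, 3 had all low libraries above all high libraries, a property that 10.4% of the 9537 genes had. Because the contrast that chose the genes is the same, nothing is read from that count.

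The libraries of low cryosurvival ordered the 4 genes in 2 ways. In low library 2, the library with the lowest length index, CRYAB and HSPB1 were at their highest within the group, and HSPB8 and BAG3 at their lowest. Set against the mean of the high libraries on the log2 scale, low library 2 was at 1.54 for CRYAB and 0.02 for HSPB1, whereas low libraries 1 and 3 were at 1.25 and 0.97 for CRYAB and at -0.22 and -0.23 for HSPB1. For HSPB8 low library 2 was at 0.33 and low libraries 1 and 3 at 1.25 and 1.22. For BAG3 the same libraries were at 0.47 in low library 2 and at 0.94 and 0.97 in low libraries 1 and 3. The part that the length index has in these values was not tested. With the index as covariate in the fit the differences were 1.24 for CRYAB, 0.95 for HSPB8, 0.80 for BAG3 and -0.15 for HSPB1. The index averaged nearly the same in both groups, so this covariate could hardly move a difference between groups, and nothing is read from it.

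**Figure D2:**
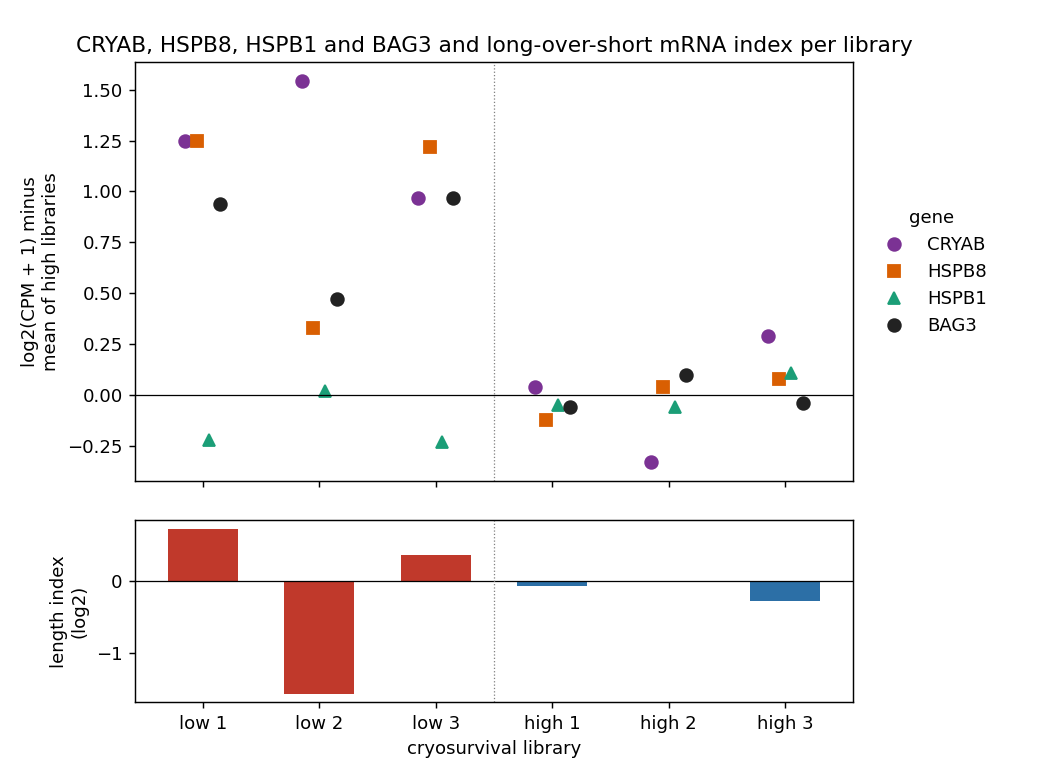
Upper panel: log2(CPM + 1) of each library minus the mean of the high cryosurvival libraries for the 4 genes; lower panel: the index of long over short mRNAs per library, on the log2 scale. Low library 2, at an index of -1.561, has the highest CRYAB value (1.54) and low values of HSPB8 (0.33) and BAG3 (0.47) for its group.

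The pairs within a library were also compared. HSPB8 amounted to 12.0, 8.13 and 11.5 CPM per 100 CPM of BAG3 in low libraries 1, 2 and 3, against 8.12, 8.33 and 9.54 in high libraries 1, 2 and 3. The ranges overlapped, so the ratio of the transcripts of these complex partners did not separate the groups, although both transcripts were higher in low cryosurvival. That overlap rests on low library 2 alone, as low libraries 1 and 3 lay above all high libraries. CRYAB amounted to 1.78, 1.88 and 1.46 CPM per 100 CPM of HSPB1 in low libraries 1, 2 and 3, against 0.595, 0.432 and 0.669 in high libraries 1, 2 and 3. Here the groups were apart in all libraries, low library 2 included. CRYAB alone already had every low library above every high library, and HSPB1 varied too little to change that. Nothing further is read from this ratio. These ratios use CPM, which is not scaled to transcript length, so they compare libraries and not the abundance of the genes.

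**Figure D3:**
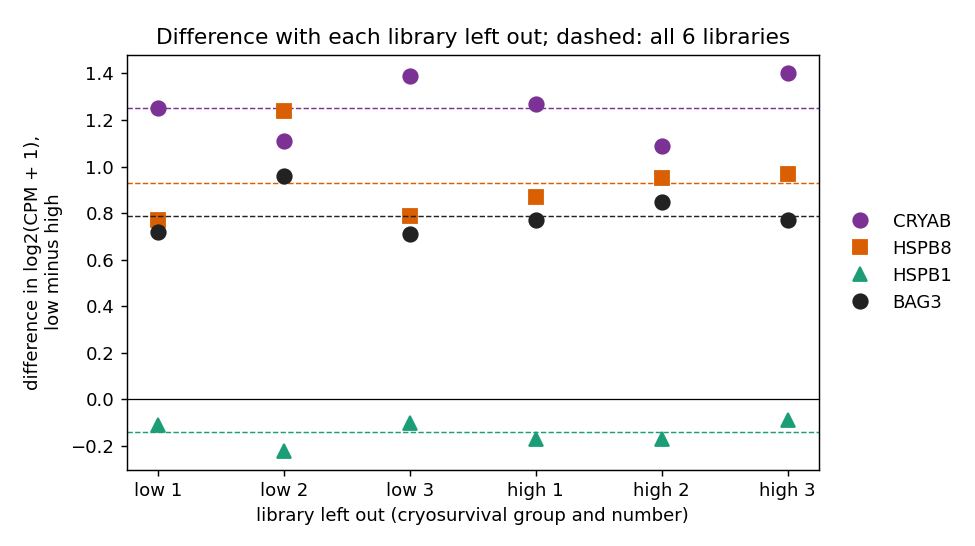
Difference in log2(CPM + 1), low minus high cryosurvival, for each gene when the library on the horizontal axis is left out; dashed lines give the value from all 6 libraries. CRYAB, HSPB8 and BAG3 stay above 0 and HSPB1 below 0 throughout, and leaving out low library 2 moves HSPB8 most, to 1.24. For CRYAB, HSPB8 and BAG3 the sign could not turn, as every low library lay above every high library.

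Over the 6 libraries HSPB8 and BAG3 ran together, with a Pearson r of 0.97 in log2(CPM + 1), and CRYAB less closely with BAG3 (0.75) and HSPB8 (0.67). HSPB1 had r of -0.83 with both BAG3 and HSPB8, and of -0.31 with CRYAB. The 6 points fall into the 2 groups compared, and so these r values are a description of likeness only. By this measure, among 7946 genes with a mean of at least 5 CPM, the genes most like BAG3 were EIF4B, a translation initiation factor (r = 0.997), MLEC, the endoplasmic reticulum lectin malectin (0.996), and ILDR1, a protein of tricellular junctions (0.992). Most like HSPB8 were TAP1, a peptide transporter of antigen presentation (0.997), FAM3C, a secreted protein (0.995), and TNPO3, a nuclear import receptor (0.993). Most like CRYAB were DDX27, an RNA helicase (0.994), NES, the intermediate filament protein nestin (0.991), and FGFR4, a fibroblast growth factor receptor (0.989). Likeness in shape was not likeness in size: DDX27 ranged only from 200 to 206 CPM in low and from 189 to 195 CPM in high libraries. Most like HSPB1 were CSRP2, a LIM domain protein of the cytoskeleton (0.998), EED, a subunit of Polycomb repressive complex 2 (0.992), and HINT2, a mitochondrial hydrolase (0.990). Of the 7946 genes compared, 35 had r above 0.95 with CRYAB, 77 with HSPB8, 73 with HSPB1 and 104 with BAG3.

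The rest of both families was looked at next. Of 7 other small heat shock protein genes listed, HSPB6 and HSPB9 were in the table. HSPB6, a muscle small heat shock protein, was at 3.50, 2.40 and 2.51 CPM in low libraries 1, 2 and 3, against 3.02, 3.62 and 5.21 CPM in high libraries 1, 2 and 3, and the groups overlapped. HSPB9, known from human testis, was near the lower end of the table at 0.733 to 1.20 CPM in low and 0.499 to 0.996 CPM in high libraries, on 9 to 21 reads a library. Their log2 differences were -0.37 ± 0.20 for HSPB6 and 0.14 ± 0.17 for HSPB9 (SE), with adjusted p values by limma of 0.572 and 0.854. HSPB2, the neighbour of CRYAB in the ARS-UCD2.0 annotation, was not in the table under that symbol, and no annotated gene overlaps any of the 4 genes in that annotation.

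All 5 other BAG genes were measured, and in none were the groups apart. BAG2, an inhibitor of the ubiquitin ligase CHIP, was at 99.5, 133 and 98.8 CPM in low libraries 1, 2 and 3, against 130, 130 and 124 CPM in high libraries 1, 2 and 3. Its log2 difference was -0.22 ± 0.15 (SE; adjusted p by limma 0.671), and without low library 2 it was -0.36 ± 0.08, called lower in low cryosurvival at an adjusted p by limma of 0.0394. Over the 13 alternatives run this p lay between 0.0394 and 0.999, and only that one gave a call. BAG1, BAG4, BAG5 and BAG6, which act as nucleotide exchange factors of HSP70 or, for BAG6, in the handling of tail-anchored and mislocalised proteins, had log2 differences of 0.03 ± 0.12, 0.09 ± 0.15, 0.07 ± 0.12 and -0.12 ± 0.23 (SE; adjusted p by limma 0.902 to 0.960).

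For the lists that follow, the fit of limma to log2(CPM + 1) of all 9537 genes is the test. The lists, like the 4 genes, were chosen with earlier results of these data known, so calls within them are not independent evidence about the lists. At an adjusted p of 0.05 it called 0 genes. At an unadjusted p below 0.05 there were 1142 genes, or 12.0%, and voom on the recovered reads also gave 0 calls. Leaving out low library 2 gave 1300 calls (13.6%), of which 777 (8.15%) were higher and 523 (5.48%) lower in low cryosurvival. The low libraries left in that fit had length indices of 0.731 and 0.364, above all high libraries (-0.277 to -0.010). Group and length index therefore cannot be told apart there, which holds for every value given without low library 2. The length index as covariate gave 1256 calls (13.2%), of which 645 (6.76%) were higher and 611 (6.41%) lower. These fits share libraries, so their calls are not independent of each other.

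Heat shock factors and other heat shock response genes were split in direction. Of 24 genes listed, 22 were measured, 13 higher and 9 lower in low cryosurvival, with a median log2 difference of 0.05 against 0.00 over all genes. HSF1, the main heat shock transcription factor, was at 191, 170 and 207 CPM in low libraries 1, 2 and 3, against 208, 198 and 189 CPM in high libraries 1, 2 and 3. Its relative HSF2 averaged 21.2 ± 3.15 CPM over low and 21.2 ± 1.26 CPM over high libraries (SD, n = 3 each). HSPA1A, the inducible HSP70 to which BAG3 hands its clients, was called higher in the authors' deposited table at an adjusted p of 0.003, the only listed gene of this group so called there. It was at 729, 534 and 648 CPM in low libraries 1, 2 and 3, against 314, 361 and 334 CPM in high libraries 1, 2 and 3, although a near-identical copy may share its reads. Its level was 738, 751 and 643 CPM per 100 CPM of BAG3 in low libraries 1, 2 and 3, against 642, 659 and 676 in high libraries 1, 2 and 3, and these ratios overlapped between groups.

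By limma 0 of the 22 passed over all genes, and 4 had an unadjusted p below 0.05. With the length index HSPA1A and the HSP40 co-chaperone DNAJB1 were called higher and HSPA2, an HSP70 of germ cells, lower. The same calls were made without low library 2, with the collagen chaperone SERPINH1 added as higher. DNAJB1 averaged 204 ± 4.60 CPM over low and 149 ± 7.74 CPM over high libraries, HSPA2 45.7 ± 6.68 CPM in low and 64.9 ± 4.54 CPM in high, and SERPINH1 28.0 ± 9.28 CPM in low and 16.5 ± 2.68 CPM in high (SD, n = 3 each). The abundant chaperones HSPA8, HSP90AB1 and HSP90AA1 had log2 differences of 0.10 ± 0.13, 0.28 ± 0.15 and 0.15 ± 0.13 (SE), and none was called by limma in these fits. All low libraries lay above all high libraries in 6 of the 22 genes and below them in 1, against 10.4% and 10.6% of all genes.

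**Figure D4:**
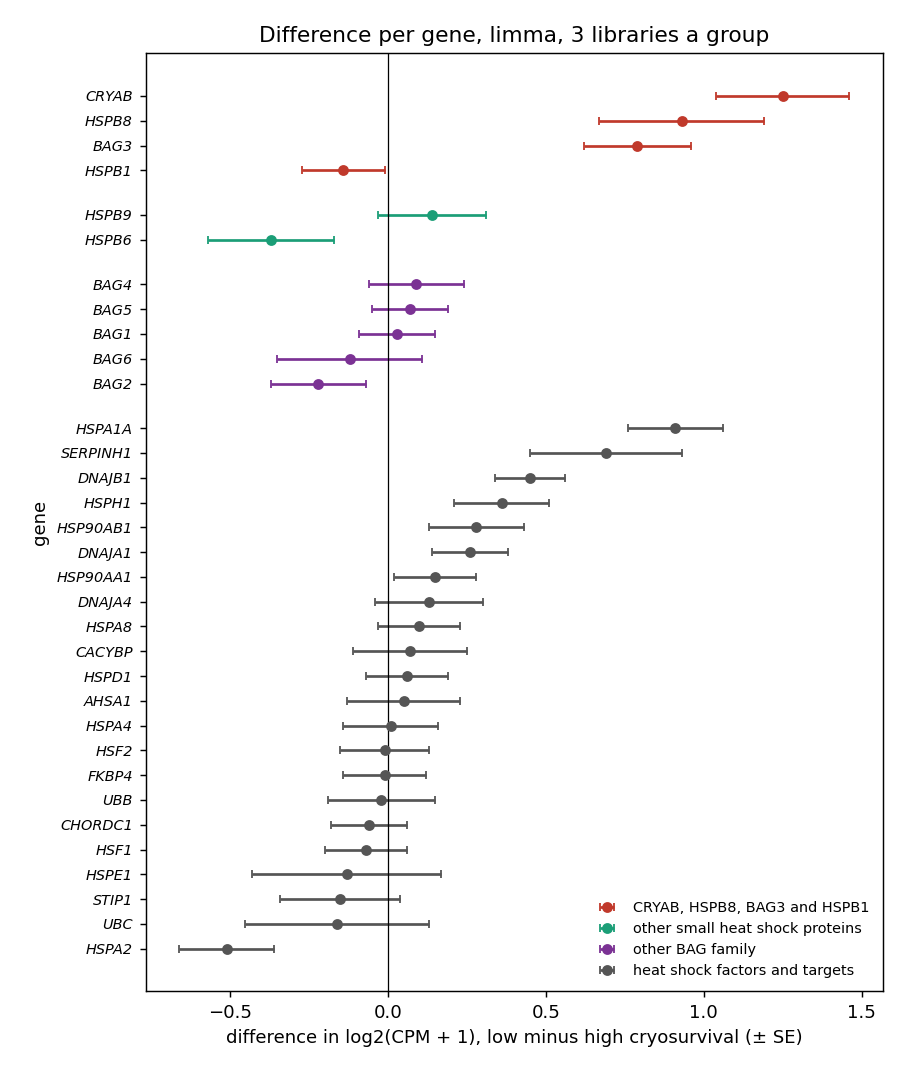
Difference in log2(CPM + 1), low minus high cryosurvival, with its SE from limma (3 libraries a group), for the 4 genes, the other small heat shock protein genes, the other BAG genes and the heat shock factors and targets. CRYAB (1.25), HSPB8 (0.93), BAG3 (0.79) and HSPA1A (0.91) lie to the right, while HSPB1 (-0.14), HSPB6 (-0.37) and BAG2 (-0.22) lie left of 0.

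Partners of BAG3 in chaperone-assisted selective autophagy, the route by which it clears damaged filamin and other clients, were listed as 26 genes, of which 21 were measured. The log2 difference was above 0 in 17 and below 0 in 4, with a median of 0.15, and 0.30 without low library 2. By limma 0 passed over all genes, and 1 had an unadjusted p below 0.05. With the length index, and also without low library 2, the calls included HSPA1A and the filamin gene FLNC, both higher in low cryosurvival. FLNC, a filamin of muscle and a client of BAG3, was at 691, 250 and 632 CPM in low libraries 1, 2 and 3, against 341, 372 and 287 CPM in high libraries 1, 2 and 3. Low library 2 lay below all high libraries, so the groups overlapped, and the log2 difference of 0.53 ± 0.38 (SE) became 0.99 ± 0.13 without it. FLNA, also a filamin, averaged 693 ± 127 CPM over the low and 559 ± 2.72 CPM over the high libraries (SD, n = 3 each). The autophagosome gene MAP1LC3A was at 23.9, 58.4 and 26.7 CPM in low libraries 1, 2 and 3, against 23.2 to 29.9 CPM in the high libraries, and its log2 difference of 0.34 ± 0.33 (SE) became -0.05 ± 0.13 without low library 2. The autophagy receptor SQSTM1 averaged 456 ± 41.6 CPM in low and 387 ± 9.40 CPM in high, with the groups apart and an adjusted p by limma of 0.552. All low libraries lay above all high libraries in 4 of the 21 genes and below them in 2, against 10.4% and 10.6% of all genes. The ubiquitin ligase STUB1, or CHIP, which works with BAG3, had a log2 difference of 0.06 ± 0.18 (SE).

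Kinases of the p38 and MAPKAPK route that phosphorylates HSPB1 were listed as 11 genes, and 7 were measured. By limma 0 passed over all genes, and 2 had an unadjusted p below 0.05. With the length index MAPK11, MAPK12 and MAPKAPK3 were called higher in low cryosurvival, and without low library 2 none of the 7 was. MAPKAPK3, a kinase that acts directly on HSPB1, was at 25.7, 26.7 and 28.2 CPM in low libraries 1, 2 and 3, against 21.0, 22.2 and 21.2 CPM in high libraries 1, 2 and 3. MAPK11 and MAPK12, other p38 kinases, had log2 differences of 0.32 ± 0.20 and 0.52 ± 0.18 (SE), with low library 2 the highest at 4.81 CPM for MAPK11 and 12.7 CPM for MAPK12. The most abundant kinases of the list, MAP2K3, MAPK14 (p38 alpha) and MAPKAPK5, had log2 differences of 0.08 ± 0.15, 0.10 ± 0.16 and 0.03 ± 0.13 (SE). Phosphorylation itself was not measured.

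The cytoskeletal proteins that small heat shock proteins guard were listed as 12 genes, all measured, with 7 above and 5 below 0 and a median log2 difference of 0.14. By limma 0 passed over all genes, and 2 had an unadjusted p below 0.05. NES, the gene for nestin and one of those most like CRYAB, was the only one called in the authors' deposited table, at an adjusted p of 0.043. It was at 67.0, 68.3 and 52.7 CPM in low libraries 1, 2 and 3, against 37.6, 32.3 and 41.0 CPM in high libraries 1, 2 and 3. With the length index, and also without low library 2, NES, the alpha-tubulin gene TUBA1A, whose close paralogs may share its reads, and the intermediate filament gene SYNM were called higher in low cryosurvival. KRT8 and KRT18, the main keratin pair of the trophectoderm, had log2 differences of -0.02 ± 0.16 and -0.25 ± 0.16 (SE), and ACTB one of -0.10 ± 0.12. DES, the muscle partner of CRYAB, averaged 5.80 ± 2.44 CPM over low and 6.42 ± 0.930 CPM over high libraries (SD, n = 3 each). VIM was low and variable in both groups, at 5.18 to 11.3 CPM in low and 1.99 to 12.7 CPM in high libraries.

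Markers of cell types known for CRYAB and HSPB8 were also summed. Of 8 striated muscle genes, 3 were in the table, and they summed to 20.4 to 31.0 CPM in low and 18.9 to 26.2 CPM in high libraries. Of 5 lens genes, BFSP1 was in the table, at 34.2 to 43.3 CPM in low and 34.2 to 46.8 CPM in high libraries. Both ranges overlapped between groups. The 8 trophectoderm markers all had log2 differences below 0, with a median of -0.24. Their sums, most of which came from KRT8 and KRT18, were 26514 to 36554 CPM in low and 31078 to 34338 CPM in high libraries. GATA2, a transcription factor of the trophectoderm, was at 686, 746 and 664 CPM in low libraries 1, 2 and 3, against 868, 927 and 992 CPM in high libraries 1, 2 and 3. TFAP2A and TFAP2C, of the same lineage, also had every low library below every high library, with log2 differences of -0.67 ± 0.20 and -0.12 ± 0.11 (SE). All low libraries thus lay below all high libraries in 3 of the 8 genes and above them in 0, against 10.6% and 10.4% of all genes. In the remaining trophectoderm markers the groups overlapped. None of the 8 was called by limma with all libraries, GATA2 was called lower both with the length index and without low library 2, and TFAP2A was called lower with the length index. The 6 hypoblast markers were split in direction, 3 above and 3 below 0, with a median of 0.17. All low libraries lay above all high libraries in 1 of them and below in 1. They summed to 1513 CPM in low library 2, 2983 and 3024 CPM in low libraries 1 and 3, and 2265 to 2956 CPM in the high libraries. Most of each sum came from FN1, at 1240 CPM in low library 2 and at 2460 and 2539 CPM in low libraries 1 and 3. COL4A1 was the one hypoblast marker called, higher in low cryosurvival with the length index and without low library 2. The 5 epiblast markers were split in direction, with a median of 0.00. NANOG, at a log2 difference of -1.23 ± 0.25 (SE), was called lower in low cryosurvival in the authors' deposited table at an adjusted p of 0.002. NANOG and DPPA3 (-0.46 ± 0.23) were called lower by limma with the length index and without low library 2. POU5F1, SOX2 and KLF4 had log2 differences of 0.00 ± 0.18, 0.26 ± 0.17 and 0.29 ± 0.16 (SE) and were not called in these fits. The 4 measured cumulus and granulosa markers had a median of -0.20 and summed to 269 to 338 CPM in low and 284 to 384 CPM in high libraries, and INHBA was called lower without low library 2. The part of these cell types in the levels of the 4 genes was not tested.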

How the data were processed

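RNA from in vitro produced bovine blastocysts was purified with a column kit, treated with DNase and made into libraries with the NEBNext Ultra II RNA kit, per the labels' protocols. The authors deposited 1 table of 9537 genes with a CPM value per library, a log2 fold of high over low cryosurvival (printed here, where at all, with the sign reversed), and p-values, raw and adjusted, to 3 decimals. The tool behind these p-values is not stated in the sources used. Per the submitters' processing notes the tools were DESeq 1.12.1, HTSeq 0.5.4p2, TopHat2 2.0.8, SAMtools 0.1.18, Bowtie2 2.1.0 and Cufflinks 2.1.1, listed without roles. No build, annotation, strand setting or low-count filter is named there, so whether reads of antisense genes were told apart is not known. The lowest mean of a gene was 0.737 CPM.

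CPM was read as the unit from the values: of the values up to 1000 CPM, 100.0% in every library were whole multiples of 1 step, within 0.05 read, and reads were recovered from these steps. Groups were compared with limma 3.58.1 (R 4.3.3) on log2(CPM + 1) over all genes, with no filter or covariate and Benjamini-Hochberg adjustment. An exact permutation test of 3 against 3 libraries cannot go below a p of 0.1, so none was made. Planned count models on the recovered reads were not run, because the decimal commas of the table kept its unit from passing the automatic check those models depend on, and voom was run on the same reads instead, a choice made after seeing the data. The covariate is the index of long over short mRNAs described with the results, with its gene sets written from general knowledge. The recovery of reads and the limma fit were tested on simulated tables with known reads and known changes. The fit did not call all of the known changes, so an absence of calls does not show an absence of differences. The 4 genes and the lists were chosen with earlier results of these data known. The genes named were every measured gene of the 2 protein families, and of each other list those called in the authors' deposited table, then the 3 most abundant and the 3 with the largest difference. A gene that this rule selects is not reported here. DNAJB1, HSF1, HSF2, SQSTM1, STUB1, DES, VIM and the cell type markers were named beyond that rule, after their values were seen. The 3 genes most like each of the 4 follow a rule as well (highest Pearson r at a mean of at least 5 CPM). Of the table's genes, 9007 matched a symbol of the ARS-UCD2.0 gene table, 474 matched only an older name and 56 neither; CRYAB, HSPB8, HSPB1 and BAG3 matched by symbol. Figures were drawn with matplotlib 3.10.9.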

Additional observations from a re-analysis of the deposited data

How the results depend on the processing

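The differences of CRYAB, HSPB8, BAG3 and HSPB1 kept their sign under all 13 alternatives run. For CRYAB, HSPB8 and BAG3 every low library lay above every high library. Leaving out a library or changing the pseudocount could therefore not turn their sign, and only the size of the difference is informative. Their ranges were 0.81 to 1.45 for CRYAB, 0.62 to 1.24 for HSPB8, 0.71 to 0.96 for BAG3 and -0.22 to -0.09 for HSPB1. Leaving out 1 library at a time gave 1.09 to 1.40, 0.77 to 1.24, 0.71 to 0.96 and -0.22 to -0.09. The difference of CRYAB moved by more than the spread between libraries with a pseudocount of 5, to 0.81, as a larger pseudocount shrinks differences of low genes. The count of genes called by limma, 0 with all libraries, was 7 with a pseudocount of 0.1 or with a filter at a mean of 5 CPM, 5 with median of ratios scaling, 1256 with the length index and 0 to 1300 when single libraries were left out; the cause was not tested. Only leaving out low library 2 gave any call among those. With the length index 3 genes were called in each of the lists of 22 heat shock genes, 21 BAG3 partners, 7 HSPB1 kinases and 12 cytoskeletal clients. The share over all genes was 13.2%. HSPA1A counts in both the heat shock and BAG3 partner lists, and HSPA2 was called lower. With single libraries left out, calls within lists ranged from 0 to 4 for heat shock genes, 0 to 3 for BAG3 partners, 0 to 3 for cytoskeletal clients and 0 to 1 for other BAG genes. All of these came without low library 2, where the share over all genes was 13.6%. With the replicate number as a block (replicate block) limma called 0 genes. Deviations of same-numbered libraries from their group means correlated at 0.12, -0.26 and -0.31, within the range of -0.36 to 0.37 among pairs with unlike numbers. With 3 libraries a group, these values cannot decide whether the numbers pair the libraries. The 2 planned count models were not run. Depth limits HSPB8, CRYAB, HSPB6 and HSPB9, which had 238 reads or fewer in every library.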
